A study of Drosophila melanogaster with 8 samples.

Results

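Transcripts of GABA and glutamate transmission and of astrocyte-like glia were followed in heads of adult Drosophila melanogaster. The 9 genes were Gad1, VGAT, Gat, Rdl and Grd for GABA, VGlut, Eaat1 and Gs2 for glutamate, and the astrocyte marker alrm. Members were all probe sets that the array annotation assigns to exactly 1 of these symbols. This gave 9 probe sets for 8 genes, of 18952 probe sets on the array and 11982 genes with such a probe set. No probe set carried Eaat1 as its only symbol, so the glutamate transporter Eaat1 was not analysed here. VGlut had 2 probe sets and the other 7 genes had 1 each. The probe set of highest mean stood for VGlut, and all 8 genes then passed the filter on low signals.

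GABA is the main inhibitory transmitter of the fly brain. It is made from glutamate by the glutamate decarboxylase Gad1, loaded into vesicles by VGAT and sensed by ligand-gated chloride channels such as Rdl, the channel on which several insecticides act. Glutamate is loaded into vesicles by VGlut and serves in the fly at neuromuscular junctions and at central synapses. Astrocyte-like glia send processes into the synaptic neuropil. They take up GABA through the membrane transporter Gat and glutamate through Eaat1, and the cytosolic enzyme Gs2 turns glutamate into glutamine. The leucine-rich-repeat gene alrm is used to mark these cells.

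Head RNA was profiled on 8 single-colour arrays in 4 groups of 2. Control flies were w1118 and carried neither driver nor transgene. In the remaining groups the heat-shock driver HspGal was combined with a UAS-EYA transgene, which was UAS-EYA-wildtype in the wild-type group, UAS-EYA-D493N in the D493N group and UAS-EYA-E728Q in the E728Q group. Eyes absent (EYA) is a transcriptional coactivator and protein phosphatase. D493N reduces the phosphatase activity, and E728Q leaves little, if any. Flies of all groups, males and females, were raised at 25 C, heat-shocked for 1 h at 37 C and left for 3 h at 25 C. RNA came from 200 heads, as 4 lots of 50. A heat-shock driver acts in many tissues, so any cell type of the head could carry the transgene. Because control flies lacked driver and insertion, effects of EYA, of the driver, of the insertion and of strain background cannot be told apart. Nothing in the labels says whether paired samples of a group are separate cultures, and p-values then measure only the spread between samples, which may be technical.

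Signals below are the deposited intensities, whose median is 100 on every array, and no probe set's level is set against another's. Summed signals of marker lists add deposited values of different probe sets, before quantile normalization, so bright probe sets weigh most in them. Log2 fold changes are of quantile-normalized values after addition of a pseudocount of 17.5, so they understate changes of dim genes. A gene was called at an adjusted p under 0.05 (limma, Benjamini-Hochberg over the 11261 tested probe sets). The correlation between replicates was lowest for D493N, at 0.981, and reached 0.991. Actin transcripts (Act5C) gave a 3' to 5' ratio, which rises as RNA is degraded, of 4.15 to 4.35 on the control and wild-type EYA arrays, 5.63 and 6.26 on the D493N arrays, and 4.84 and 5.11 on the E728Q arrays. The same ratio for eIF4A was 2.51 and 2.73 on the control arrays and higher on all 6 EYA arrays, at 2.80 to 4.05, wild-type EYA included (2.89 and 3.23). The 5' signal for 18S rRNA was 5619 on D493N replicate 1 and at most 2196 on the other arrays. The part of these differences in the results was not tested. For eya itself, the targeted gene, the probe set had log2 fold changes against control of -0.04 with wild-type EYA (adjusted p = 0.855), 0.46 with D493N (adjusted p = 0.0234) and 0.35 with E728Q (adjusted p = 0.0707). The D493N value was no longer called in 5 of 17 alternative settings. Its position relative to the transgene is not known, so it does not test transgene expression.

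Against control, 3 of the 8 genes fell in wild-type EYA heads, 5 in D493N heads and 4 in E728Q heads, and none rose in any group. Gat, Rdl and alrm fell in each comparison, VGlut fell with both mutants, and Gs2 fell with D493N. Gad1, VGAT and Grd were not called. Over all tested probe sets, 22.3% were called with wild-type EYA (10.9% lower, 11.4% higher), 27.9% with D493N (13.9% lower, 14% higher) and 23.5% with E728Q (11.7% lower, 11.8% higher). The median log2 fold change of the 8 genes was -0.40, -0.36 and -0.42 in that order, against -0.03, -0.02 and 0.00 over all tested probe sets. On the normalized scale the arrays of both groups did not overlap for 6, 6 and 8 of the 8 genes, where 65.3%, 61.5% and 65.1% of all tested probe sets had no overlap. D493N replicate 1 stood apart in 18S rRNA. Without it, the D493N log2 fold changes of Gat, Rdl, VGlut, Gs2 and alrm were -2.20, -0.54, -0.47, -0.35 and -1.28. Without D493N replicate 2 they were -1.20, -0.86, -0.50, -0.12 and -0.56. Each comparison used the same control arrays, so the 3 counts of called genes are not independent. All 6 EYA arrays lay below both control arrays for 5 of the 8 genes, Gat, Rdl, VGlut, Gs2 and alrm, against 21.3% of all tested probe sets. The eIF4A ratio of 3' to 5' signal separated the arrays in the same way, and its part in these decreases was not tested. The ratios of Act5C, Gapdh and a further actin control did not separate them fully. Control replicate 2 had 4.285, 1.777 and 1.721 for these. Wild-type replicate 1 had 4.275 for Act5C, wild-type replicate 2 had 1.724 for Gapdh, and E728Q replicate 2 had 1.624 for actin. The other EYA arrays lay above both control arrays in each ratio. The 3 genes called lower in all comparisons compare with 7.27% of all tested probe sets.

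**Figure D1:**
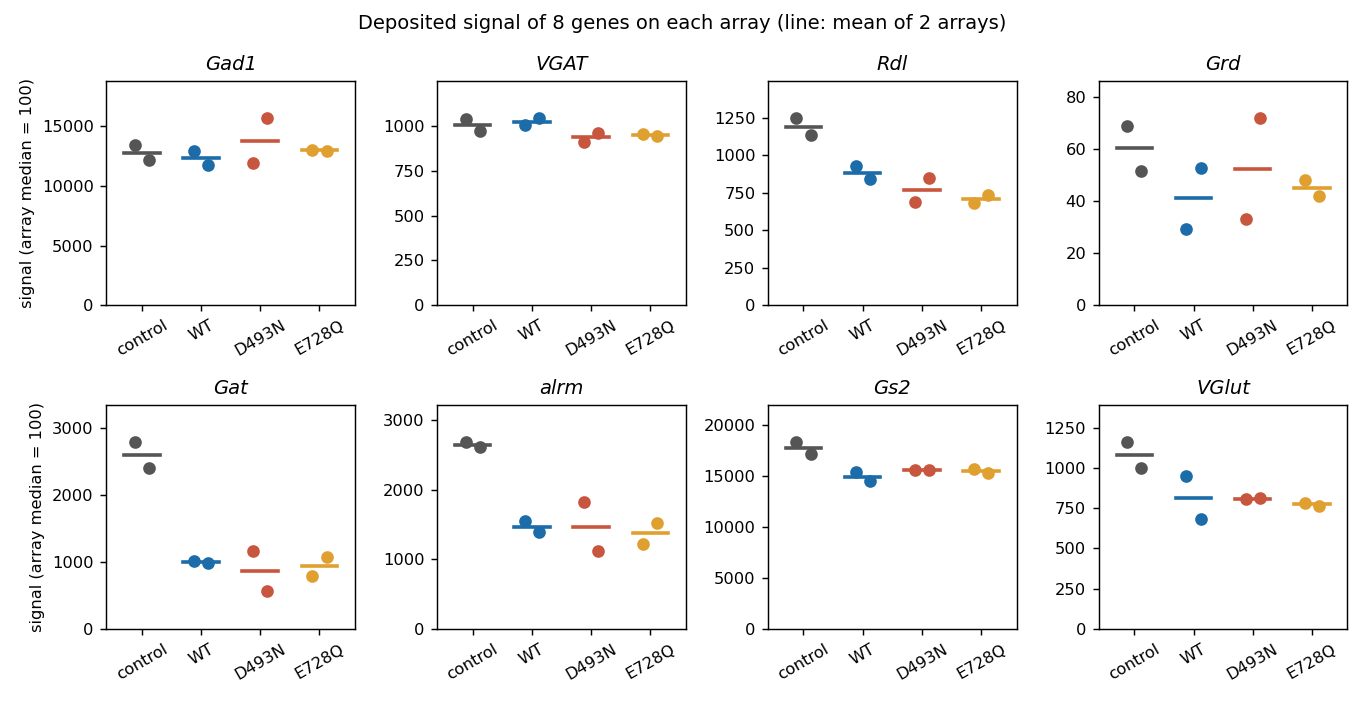
Deposited signal of the 8 genes (vertical axes, array median 100, each from 0) on each array, by group. Points are arrays and lines are means of 2. For Gat, alrm, Rdl, VGlut and Gs2 all EYA arrays lie below both control arrays, while the groups overlap or lie close for Gad1, VGAT and Grd.

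The astrocyte GABA transporter Gat had the largest decrease of the 8 genes in each comparison. Its signals were 2783 and 2394 on the control arrays, 1006 and 986 on the wild-type arrays, 1156 and 562 on the D493N arrays, and 789 and 1077 on the E728Q arrays. Every EYA array was thus below every control array, and the D493N arrays differed from each other by 2.05-fold. Means of the control, wild-type, D493N and E728Q arrays were 2588 ± 275, 996 ± 14.0, 859 ± 419.5 and 933 ± 203 (SD, n = 2 each). The log2 fold change was -1.31 (SE 0.27, adjusted p = 0.00847) with wild-type EYA, a 2.48-fold lower level. It was -1.70 (adjusted p = 0.00179) with D493N, 3.24-fold lower, and -1.48 (adjusted p = 0.00449) with E728Q, 2.79-fold lower. Leaving out control replicate 1, wild-type replicate 1 or wild-type replicate 2 removed the wild-type call (adjusted p = 0.0637, 0.0573 and 0.0528). The calls with both mutants held in all 17 alternatives, and the D493N value ranged from -2.20 without D493N replicate 1 to -1.20 without D493N replicate 2. The Gat probe set, like that of Gad1, is of a type that can match transcripts of more than 1 gene.

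The astrocyte marker alrm followed Gat closely across arrays. Signals of alrm were 2680.4 and 2611 on the control arrays, 1545 and 1387 on the wild-type arrays, 1814 and 1113 on the D493N arrays, and 1225 and 1517 on the E728Q arrays. The lowest control value was well above the highest EYA value. The log2 fold change was -0.79 (SE 0.20, adjusted p = 0.0216) with wild-type EYA, -0.92 (adjusted p = 0.00878) with D493N and -0.94 (adjusted p = 0.00951) with E728Q. These are levels 1.73-fold, 1.89-fold and 1.92-fold lower than control. Alrm lost its wild-type call without a variance trend (adjusted p = 0.0657) and without control replicate 1, control replicate 2, wild-type replicate 1 or wild-type replicate 2 (adjusted p 0.0928, 0.117, 0.0870 and 0.120). Leaving out control replicate 2 removed its D493N call (adjusted p = 0.0618), and its D493N value ranged from -1.28, when D493N replicate 1 was left out, to -0.56, when D493N replicate 2 was. Leaving out control replicate 1 (adjusted p = 0.0523), control replicate 2 (0.0667) or E728Q replicate 1 (0.0745) removed its E728Q call.

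Gs2, the glutamine synthetase of the cytosol, moved by a smaller amount. Its signals were 18279 and 17133 on the control arrays, 15306 and 14499 on the wild-type arrays, 15562 and 15534 on the D493N arrays, and 15676 and 15274 on the E728Q arrays. All EYA arrays were below both controls. The log2 fold change was -0.24 (SE 0.07, adjusted p = 0.0424) with D493N, and it was not called at -0.16 (adjusted p = 0.172) with wild-type EYA or -0.18 (adjusted p = 0.121) with E728Q. The D493N call held in 5 of 17 alternatives and the adjusted p reached 0.202. Of the 8 fits that leave out an array, the fit without D493N replicate 1 called it, at -0.35, and the other 7 did not. Without D493N replicate 2 the value was -0.12 (adjusted p = 0.0998). With wild-type EYA and with E728Q, 3 alternatives each gave a call: the fit of only the groups compared, and those without D493N replicate 1 or replicate 2.

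Beyond these, the list of astrocyte markers held alrm, Gat, Gs2, Eaat1, Eaat2, NtR, e, wun2 and Obp44a, of which 8 were tested. With wild-type EYA 5 fell and none rose, with D493N 6 fell and 1 rose, and with E728Q 5 fell and 1 rose. Over all tested probe sets, 10.9%, 13.9% and 11.7% were called lower and 11.4%, 14% and 11.8% higher in that order. The list was chosen with earlier results of these data known. The list medians were -0.56, -0.82 and -0.80. Without the members described above, 3 of the remaining 5 genes fell in each comparison, with medians of -0.50, -0.71 and -0.65. Wun2, a lipid phosphate phosphatase, gave 1268 and 1053 on the control arrays, 746 and 675 on the wild-type arrays, 548 and 375 on the D493N arrays, and 548 and 614 on the E728Q arrays. Its log2 fold changes were -0.67, -1.36 and -1.01 in those groups, all called (adjusted p = 0.0142, 0.000274 and 0.00175). The gene e (ebony), whose glial enzyme joins histamine and dopamine to beta-alanine, fell in each group, with log2 fold changes of -0.63, -1.38 and -1.01 (adjusted p = 0.00562, 6.7e-05 and 0.000455). NtR, a member of the ligand-gated ion channel family, fell in each, with values of -0.50, -0.71 and -0.65 (adjusted p = 0.0241, 0.00340 and 0.00658).

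Not every gene of the astrocyte marker list was lower. Eaat2, a transporter of the excitatory amino acid transporter family, had values of 0.03, 0.23 and 0.24, of which the D493N and E728Q values were called (adjusted p = 0.0273 and 0.0270) and lost their calls in 8 and 7 of 17 alternatives. Its wild-type value turned to -0.10 with the deposited values and to -0.03 with arrays scaled to one trimmed mean. Obp44a, a secreted odorant-binding protein abundant in glia, was not called, at 0.07, -0.01 and -0.05. Over the alternatives, 1 to 6 genes of the list were called with wild-type EYA, 5 to 7 with D493N and 4 to 7 with E728Q. The wild-type call of wun2 was lost without either control array or either wild-type array (adjusted p up to 0.109), and that of e without control replicate 2 (adjusted p = 0.0536). That of NtR was lost in 5 alternatives, including without either control array or wild-type replicate 2 (adjusted p up to 0.173). The summed signal of the 8 tested markers was 52849 and 55796 in control and 45019 to 48811 with wild-type EYA. It was 50206 to 51839 with D493N and 48519 to 48783 with E728Q, and no marker was at 0. Without the members, the sum of the remaining 5 was 30711.6 and 32053.9 in control and 28147 to 30953.8 with wild-type EYA. That sum was 31673.5 to 34630.1 with D493N and 30828.8 to 30914.8 with E728Q, so each EYA group overlapped control. In RNA from whole heads, fewer cells of a type and less RNA per cell cannot be told apart.

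Markers of other glia were called in both directions. Of 8 tested markers, 1 was called higher and 1 lower with wild-type EYA and again with E728Q, and 1 higher and 3 lower with D493N. Moody, a receptor of the glia that form the blood-brain barrier, rose from 3365 and 2794 in control to between 6235 and 8277 on the EYA arrays, with log2 fold changes of 1.30, 1.35 and 1.15. Tret1-1, a trehalose transporter, fell in each group (-0.78, -0.83 and -0.76). The calls for moody and Tret1-1 held in all 17 alternatives of each comparison. The pan-glial transcription factor gene repo was called with D493N, at -0.27 (adjusted p = 0.0358), and not called at -0.21 in each of the other EYA groups. The D493N call was lost in 10 of 17 alternatives.

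**Figure D2:**
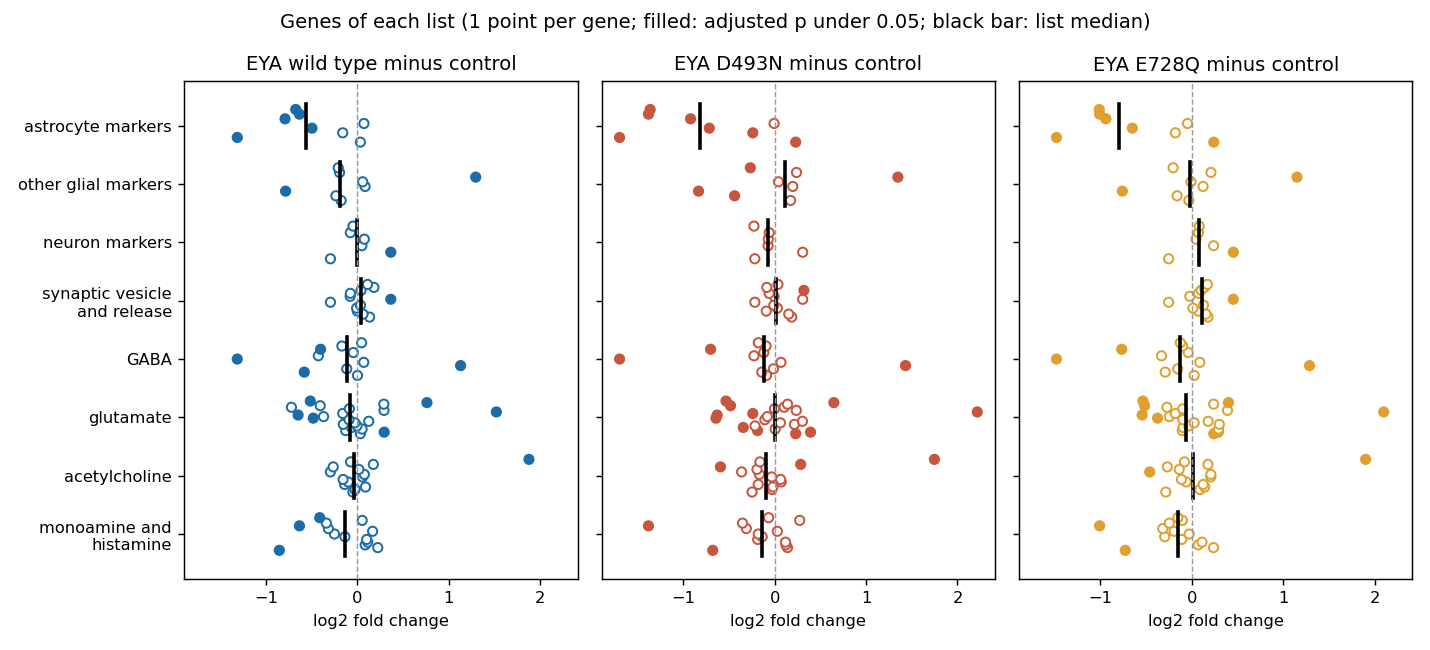
Log2 fold change against control (horizontal axis) of each tested gene of 8 lists (rows), in a panel per EYA group. Each point is a gene, filled where called, and black bars are list medians. The medians of astrocyte markers lie at -0.56, -0.82 and -0.80, and the points of the list lie on both sides of 0.

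The genes that make and package GABA were not called in any comparison. Gad1 gave 13384.5 and 12125 on the control arrays, 12908 and 11739.8 on the wild-type arrays, 11904 and 15647 on the D493N arrays, and 13040.3 and 12951 on the E728Q arrays. The D493N arrays held both the highest value and a value below both controls, and on the deposited scale every EYA group overlapped control. Its log2 fold changes were 0.07 (95% interval -0.08 to 0.22), 0.07 (-0.08 to 0.22) and 0.09 (-0.06 to 0.23), with adjusted p of 0.497, 0.479 and 0.393. With the deposited values the wild-type value turned to -0.05, and without D493N replicate 2 the D493N value turned to -0.01. VGAT gave 1038 and 974 on the control arrays, 1007 and 1041 on the wild-type arrays, 911 and 963 on the D493N arrays, and 953 and 942 on the E728Q arrays. The 4 mutant arrays lay below both controls, and the wild-type arrays overlapped them. The log2 fold changes of VGAT were 0.05 (95% interval -0.14 to 0.23), -0.18 (-0.36 to 0.01) and -0.13 (-0.31 to 0.06), with adjusted p of 0.740, 0.143 and 0.315.

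Rdl, the GABA-gated chloride channel subunit, fell in each comparison. Its signals were 1245 and 1135 on the control arrays, 925 and 839.8 on the wild-type arrays, 686.5 and 846 on the D493N arrays, and 683 and 736 on the E728Q arrays. Every EYA array was below both controls, and 3 of the 4 mutant arrays were below both wild-type arrays. The log2 fold change was -0.40 (SE 0.11, adjusted p = 0.0348) with wild-type EYA, -0.70 (adjusted p = 0.00199) with D493N and -0.77 (adjusted p = 0.00149) with E728Q, which is 1.32-fold, 1.62-fold and 1.70-fold lower. The calls with both mutants held in all 17 alternatives. The wild-type call was lost in 7, namely without a variance trend (adjusted p = 0.0700) and without control replicate 1 (0.161), control replicate 2 (0.127), wild-type replicate 1 (0.104), wild-type replicate 2 (0.187), E728Q replicate 1 (0.0530) or E728Q replicate 2 (0.0541).

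Grd, a subunit of the same receptor family, was dim. Its signals were 68.9 and 51.7 on the control arrays, 29.4 and 52.6 on the wild-type arrays, 33.1 and 71.7 on the D493N arrays, and 48.1 and 41.9 on the E728Q arrays. Arrays of 1 group differed by up to 2.16-fold, and the wild-type and D493N arrays overlapped control. The log2 fold changes of -0.43, -0.23 and -0.33 had an SE of 0.36 and were not called (adjusted p = 0.461, 0.693 and 0.573). The intervals ran from -1.25 to 0.39, from -1.04 to 0.59 and from -1.15 to 0.49, so these arrays do not separate a decrease of 1 log2 unit from no change.

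Other genes of the GABA list were called in both directions. Of 11 tested genes, the 5 described above included, 3 fell and 1 rose with wild-type EYA, and 2 fell and 1 rose with each mutant. Without the 5, 2 of 6 genes were called with wild-type EYA and 1 of 6 with each mutant, where the share over all tested probe sets was 22.3%, 27.9% and 23.5%. The medians of the whole list were -0.12, -0.12 and -0.13. Gabat, the transaminase that degrades GABA, gave 194 and 148 on the control arrays, 374 and 399 on the wild-type arrays, 475 and 532 on the D493N arrays, and 387 and 517 on the E728Q arrays. All EYA arrays exceeded both controls, and it rose by 1.13, 1.43 and 1.29 on the log2 scale (adjusted p = 0.00133, 0.000286 and 0.000652), a call that held in all 17 alternatives of each comparison. GABA-B-R1, a subunit of the metabotropic GABA receptor, fell with wild-type EYA, at -0.58 (adjusted p = 0.0221), and was not called with D493N (-0.14) or E728Q (-0.29). Leaving out control replicate 1, control replicate 2 or wild-type replicate 1 removed that call (adjusted p = 0.150, 0.0569 and 0.154).

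**Figure D3:**
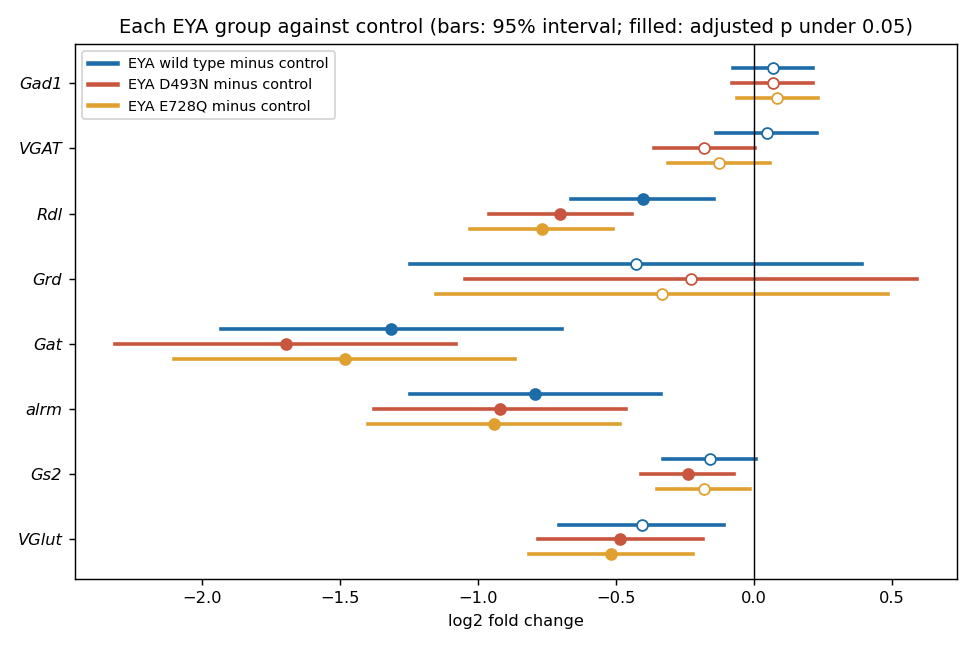
Log2 fold change of the 8 genes against control (horizontal axis) for each EYA group. Circles are estimates, filled where called, and bars are 95% intervals from the fit over 2 arrays a group. Gat lies furthest from 0 in each group, at -1.31, -1.70 and -1.48.

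VGlut, the vesicular glutamate transporter, fell with both mutants. Its signals were 1160.3 and 1000.4 on the control arrays, 948 and 682.5 on the wild-type arrays, 807 and 811 on the D493N arrays, and 784 and 763 on the E728Q arrays. All EYA arrays were below both controls, and the wild-type arrays lay on either side of all mutant arrays. The log2 fold change was -0.48 (SE 0.13, adjusted p = 0.0241) with D493N, 1.40-fold lower, and -0.52 (adjusted p = 0.0207) with E728Q, 1.43-fold lower. With wild-type EYA it was -0.41 and missed the threshold (adjusted p = 0.0568), while 5 of 17 alternatives called it, including the fits without wild-type replicate 1, D493N replicate 1 or D493N replicate 2. The wild-type value was -0.62 without wild-type replicate 1 (adjusted p = 0.0115) and -0.19 without wild-type replicate 2 (adjusted p = 0.334). The D493N call was lost in 5 alternatives: deposited values (adjusted p = 0.0631), no variance trend (0.0572), and without control replicate 1 (0.146), control replicate 2 (0.0696) or D493N replicate 1 (0.0535). The E728Q call was also lost in 5, with no variance trend (adjusted p = 0.0526) and without control replicate 1 (0.133), control replicate 2 (0.0671), E728Q replicate 1 (0.0837) or E728Q replicate 2 (0.105). The other VGlut probe set had signals of at most 23.6 on any array, below the filter, and its value is not used in the counts.

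Of 22 tested genes of glutamate signalling and metabolism, VGlut and Gs2 included, 3 were called higher and 3 lower in the wild-type group. These counts were 4 and 7 in the D493N group, and 4 and 4 in the E728Q group. Without VGlut and Gs2, the counts among 20 genes were 3 and 3, 4 and 5, and 4 and 3 in that order. Over all tested probe sets, 22.3%, 27.9% and 23.5% were called in the 3 comparisons. The medians of the whole list were -0.08, 0.00 and -0.07. KaiR1D, a kainate-type glutamate receptor, gave 81.2 and 66.5 on the control arrays, 218 and 269 on the wild-type arrays, 387 and 460.2 on the D493N arrays, and 398 and 358 on the E728Q arrays. It rose by 1.52, 2.22 and 2.10 on the log2 scale. The transporter gene gb (genderblind), whose product exports glutamate from glia, rose by 0.76, 0.65 and 0.40, and the E728Q call was lost without control replicate 1, control replicate 2 or E728Q replicate 1 (adjusted p = 0.0777, 0.0780 and 0.110).

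Among enzymes of the list, Gs1 and Got2 fell in every group. Gs1, the mitochondrial glutamine synthetase, had signals of 7386 and 6857 in control and of 3956 to 4799.6 on the EYA arrays, and its log2 fold changes were -0.65, -0.63 and -0.54. Got2, the mitochondrial aspartate aminotransferase, had values of -0.48, -0.64 and -0.38. The calls for KaiR1D, Gs1 and Got2 held in all 17 alternatives of each comparison. Over the alternatives the number of called genes in the glutamate list ranged from 4 to 9, from 4 to 11 and from 3 to 10.

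Genes of other transmitters and of synapses in general are given beside the share of all tested probe sets that were called, 22.3%, 27.9% and 23.5% in the 3 comparisons. Of 14 tested acetylcholine genes, 1 rose with wild-type EYA, 2 rose and 1 fell with D493N, and 1 rose and 1 fell with E728Q. The receptor subunit gene nAChRbeta3 rose in each, by 1.88, 1.75 and 1.90 on the log2 scale. Of 13 tested genes for monoamines and histamine, 3, 2 and 2 fell and none rose. They included e, described above, and Balat, a beta-alanine transporter, which fell in each comparison (-0.85, -0.68 and -0.73) and lost its calls in 4, 9 and 5 alternatives, with a D493N value of -0.42 without D493N replicate 2. The hydrolase gene t (tan), which acts with e in histamine recycling, fell with wild-type EYA (-0.41, lost in 4 alternatives) and was not called with D493N (-0.07) or E728Q (-0.15). Of 12 tested genes of synaptic vesicles and release, 1 rose in each comparison and none fell, with medians of 0.04, 0.01 and 0.11.

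Of 6 tested neuron markers, 1 rose with wild-type EYA, none was called with D493N and 1 rose with E728Q. These counts stand beside 22.3%, 27.9% and 23.5% called over all tested probe sets. That gene was cac, a calcium channel subunit, which also gave the synapse call in those groups (0.37 and 0.45), and the D493N synapse call was nwk (0.32), whose product acts at the neuromuscular junction. The cac calls were lost in 8 and 4 of 17 alternatives and that of nwk in 11, and nwk was 0.20 without D493N replicate 2. The pan-neuronal genes elav and nSyb were not called. The summed signal of the 6 neuron markers was 9495 and 10302 in control and 9494 to 11840.3 over the EYA arrays. Of 4 tested photoreceptor markers, 1 rose in each comparison, Arr1, by 0.20 to 0.27 on the log2 scale, and its calls with wild-type EYA and E728Q were lost in 8 and 6 alternatives. Their sum was 87341 or more on every array, and the labelled tissue, heads, thus had its photoreceptor markers.

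Markers of other head tissues were also called in these comparisons, where 22.3%, 27.9% and 23.5% of all tested probe sets were called. Of 6 tested fat body markers, 1 rose in each comparison and 3, 2 and 3 fell. They included Lsp2, a serum storage protein, which rose by 1.49, 1.60 and 1.60 on the log2 scale, and fit, a secreted peptide gene, which fell (-0.62, -1.82 and -2.36). The lipoprotein gene apolpp fell with wild-type EYA (-0.38) and E728Q (-0.24) and was not called with D493N (-0.10). The wild-type call of fit was lost in 8 of 17 alternatives, and those of apolpp in 2 with wild-type EYA and in 11 with E728Q. Of 5 blood cell markers, 2 rose and 2 fell in each comparison, with list medians of -0.54, -0.53 and -0.27. NimC1, a phagocytosis receptor, was up by 1.79, 1.56 and 1.50, and srp by 0.72, 0.84 and 0.61. Hml (-0.54, -0.65 and -0.77) and Sr-CI (-0.62, -0.56 and -0.67) fell. Sr-CI lost its calls in 5, 6 and 3 alternatives, and Hml lost its wild-type call in 3. None of 3 tested muscle markers was called. The summed signals of fat body markers were 104300.0 and 112294 in control, 87035 to 101082 in the wild-type group, 100043 to 117528 in the D493N group and 93324 to 95705 in the E728Q group. Whether these tissues play a part in the values of the 8 genes was not tested.

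Comparisons between the EYA groups ask whether levels differ with the phosphatase mutation, D493N or E728Q. Effects of the mutation, of transgene insertion and of transgene expression cannot be told apart in them. For eya the log2 difference from wild-type EYA was 0.50 with D493N and 0.40 with E728Q, neither called in limma (adjusted p = 0.108 and 0.263). None of the 24 tests of the 8 genes in 3 comparisons was called in limma (lowest adjusted p = 0.242), and 3 had an unadjusted p under 0.05. Over all tested probe sets, 1.15% were called between D493N and wild-type EYA, 0.71% between E728Q and wild-type EYA, and 0.169% between the mutants. With the deposited values, the split of these calls between higher and lower changed from 60 and 70 to 86 and 38 for D493N, from 40 and 40 to 42 and 24 for E728Q, and from 9 and 10 to 5 and 11 between the mutants.

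Rdl was the gene of lowest unadjusted p. The log2 difference from wild-type EYA was -0.37 for E728Q (95% interval -0.63 to -0.11, adjusted p = 0.267) and -0.30 for D493N (95% interval -0.56 to -0.04, adjusted p = 0.275). The D493N difference was called without D493N replicate 2 (-0.46, adjusted p = 0.0218) and was -0.14 without D493N replicate 1 (adjusted p = 0.507). The E728Q difference was called without either D493N array (adjusted p = 0.0463 and 0.0472) and in no other fit that leaves out an array (from -0.42 to -0.31). VGAT differed by -0.23 between D493N and wild-type EYA (95% interval -0.41 to -0.04, adjusted p = 0.242).

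For the other genes the intervals show how large a difference the arrays still allow. For Gat the D493N level minus the wild-type level was -0.38 (95% interval -1.001 to 0.24), and it was -0.88 without D493N replicate 1 (adjusted p = 0.0258) and 0.11, the opposite direction, without D493N replicate 2 (adjusted p = 0.710). The Gat difference was -0.17 (-0.79 to 0.45) for E728Q against wild-type EYA and 0.21 (-0.40 to 0.83) between the mutants. For alrm the 3 differences were -0.13 (-0.59 to 0.33), -0.15 (-0.61 to 0.31) and -0.02 (-0.48 to 0.43). For VGlut they were -0.08 (-0.37 to 0.22), -0.11 (-0.41 to 0.19) and -0.03 (-0.33 to 0.26). The intervals of Gs2 and Gad1 lay within -0.25 and 0.23, and those of Grd reached from -0.93 to 1.02.

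**Figure D4:**
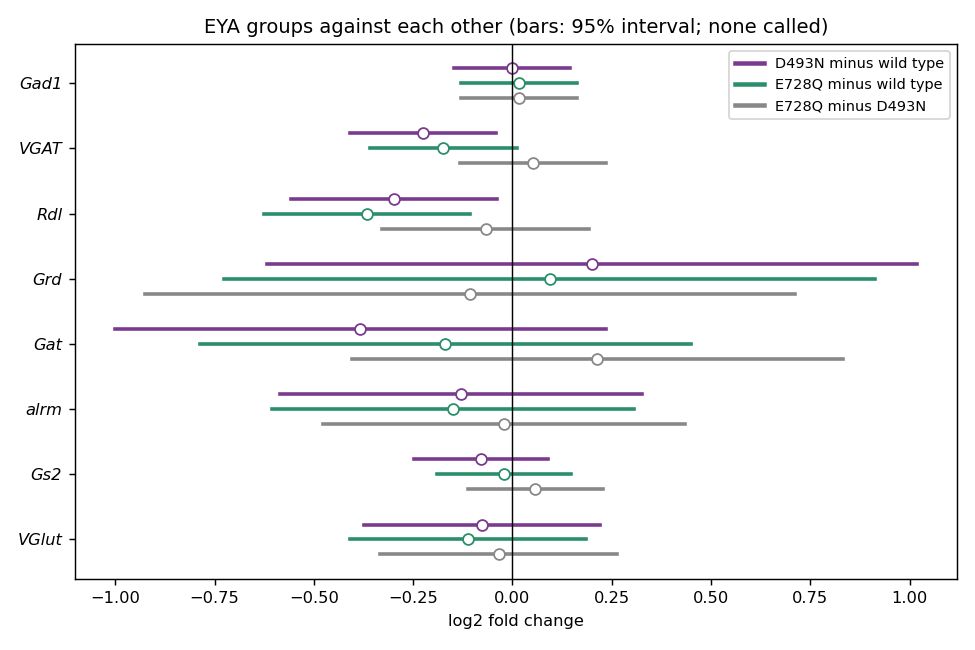
Log2 differences between EYA groups (horizontal axis) of the 8 genes. Circles are estimates and bars 95% intervals from the fit over 2 arrays a group. No difference was called, and 3 intervals, those of VGAT for D493N and of Rdl for both mutants against wild-type EYA, leave out 0.

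**Figure D5:**
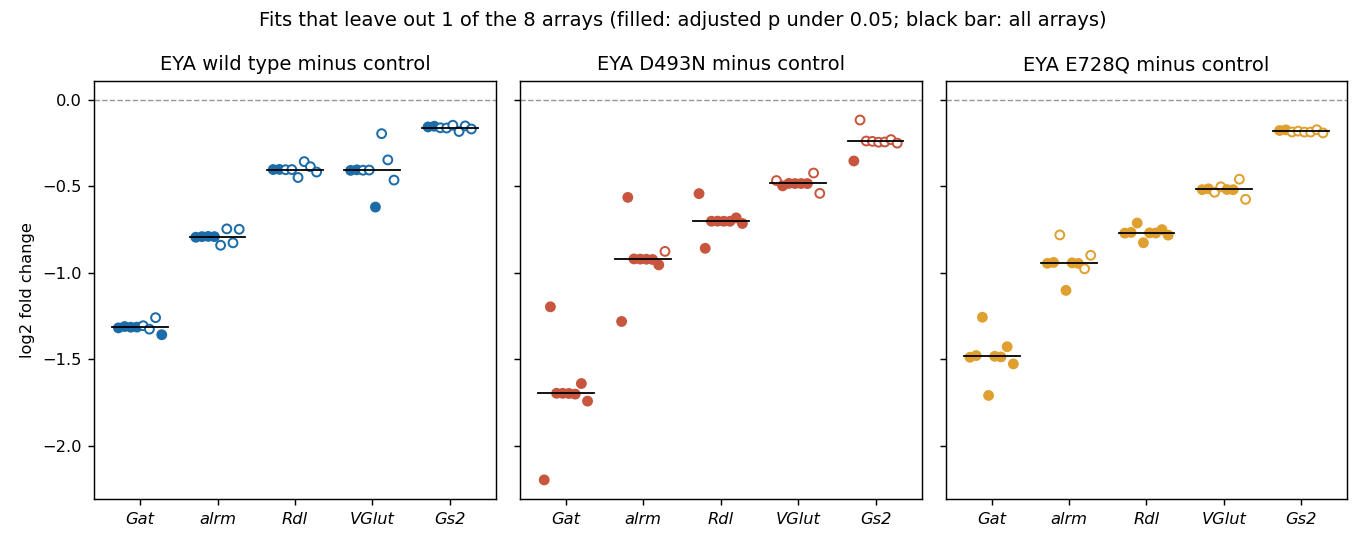
Log2 fold change against control (vertical axis) of 5 genes in fits that each leave out 1 of the 8 arrays, in a panel per EYA group. Points are filled where called and black bars are values with all arrays. All points lie below 0, and Gat with D493N spreads from -2.20 to -1.20.

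Across the 8 arrays, the normalized log2 values of Gat, alrm and Gs2 ran closely together, and the other astrocyte markers were not included. The correlations are descriptions over 8 arrays that share the same group differences. Gat correlated with alrm at r = 0.98 and with Gs2 at 0.95, and Gs2 with alrm at 0.93. Rdl correlated with VGlut at 0.86. Gad1 ran opposite to these 3 genes, with r of -0.77 with Gat, -0.82 with alrm and -0.85 with Gs2. Grd had r from 0.00 to 0.44 in size with every other gene.

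Among 8660 tested genes, each compared gene itself left out, the 2 most like Gat were Jheh2 (r = 0.99) and Mtpbeta (r = 0.99). With Gat, 291 genes had r over 0.9. The most like alrm were Jabba and CG11248 (both 0.99, 231 genes over 0.9), and the most like Rdl were LanB1 and Hnf4 (both 0.99, 201 genes over 0.9). For Gs2 they were CG18327 and dj-1beta (both 0.97, 98 genes), and for VGlut CG8861 and CG4872 (both 0.97, 90 genes). For the genes that were not called the number over 0.9 was smaller. Gad1 was most like en (0.99) and rdgC (0.96) with 11 genes, VGAT was most like CG14194 and CG11555 (both 0.95) with 24, and Grd was most like Cad87A and Alk (both 0.96) with 14.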

How the data were processed

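Head RNA of 4 groups of 2 samples was hybridised to single-colour Affymetrix arrays. The authors deposited 1 intensity per probe set and array, on a linear scale and with an array median of 100. The submitters' processing notes name GCOS, and no background correction or summary method is stated there. Mean signals between percentiles 2 and 98 spread by 11.5% over the arrays, above a tolerance of 5%, so arrays were quantile normalized. Values were log2 transformed after adding 17.5, the 25th percentile of the deposited table. Tests left out 183 Affymetrix control probe sets, and the brightest 60% of the other 18769 by mean over the arrays, 11261, were tested (lowest mean 38.1).

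One limma model (3.58.1, R 4.3.3) held all 8 arrays, with each group as a coefficient (lmFit, and eBayes with a variance trend, with 4 residual and 4.75 prior degrees of freedom). It gave 6 comparisons, each EYA group against control and each pair of EYA groups. Tests were two-sided, Benjamini-Hochberg adjustment covered all tested probe sets, and the threshold was 0.05. The number of arrays limits the precision.

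The array annotation names 1 symbol for 13647 probe sets, more than 1 for 402 and none for 4903. Gene identifiers gave current symbols for 13544 of the 13647 through the RefSeq gene table of Release 6 plus ISO1 MT, from which only names were used. The genes named are the 9 members, eya, up to 4 called genes of each list by size of change, and the 2 genes most correlated with each member. Mdr65, nAChRalpha7, nAChRalpha4, nAChRbeta1 and Yp2 met that rule, and their values are not given. Elav, nSyb and Obp44a are named outside it, after their values were seen. The members and lists were chosen with earlier results of these data known. Of 17 alternatives, 8 leave out an array, and the others change the pseudocount, filter, normalization, variance trend, samples in the fit or replicate block. For VGlut the other probe set was tried too.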

Additional observations from a re-analysis of the deposited data

Results flagged for a closer look

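A control probe set outside the comparisons gave a signal above the level in control heads. The 5' signal for 18S rRNA was 5619 on D493N replicate 1, against 842 and 809 in the control samples and at most 2196 on the other EYA arrays. Its 3' signal was 11249. The part of this in the results that use that array was not tested. No gene was set against the others of its group for outlying samples, since groups of 2 are too small.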

How the results depend on the processing

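The lower values of Gat, Rdl and alrm against control kept their direction in all 17 alternatives, as did those of VGlut and Gs2 on the probe sets used. With 2 arrays a group, calls depended on single arrays. The number of called genes against control with wild-type EYA, 3, became 1 without a variance trend and 5 with only the groups compared, and it ranged from 0 to 5 when arrays were left out in turn. For D493N, 5 became 3 with the deposited values and 3 without a variance trend, and 2 to 4 with an array left out. For E728Q, 4 became 2 to 5 with an array left out. Between D493N and wild-type EYA, and between E728Q and wild-type EYA, 0 became 0 to 1. Same-numbered replicates did not deviate together (r from -0.14 to 0.09 over the pairs of groups). The labels do not say whether the numbers pair the samples, and this check cannot settle it. The replicate block gave 3, 4 and 4 called genes against control and 0 between EYA groups. Over all tested probe sets, calls against control ranged from 1413 to 3467, 1868 to 3731 and 1483 to 3516.

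No value that changed sign was called, with all arrays or under the alternative, and the cause was not tested. The sizes reached 0.34, for alrm between the mutants. With the deposited values these were, against control, Gad1 (-0.049), nwk (-0.054) and Eaat2 (-0.098) with wild-type EYA, and apolpp with D493N (0.020). Between EYA groups they were Gad1 (0.15), VGlut (0.00813) and Gs2 (0.062) for D493N minus wild type, Gs2 for E728Q minus wild type (0.055), and Gad1 (-0.071) and Gs2 (-0.00693) for E728Q minus D493N. With arrays scaled to one trimmed mean they were eya (0.00380) and Eaat2 (-0.035) with wild-type EYA, and Gad1 for D493N minus wild type (0.055) and E728Q minus D493N (-0.035). The other VGlut probe set gave 0.21 with wild-type EYA.

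When arrays were left out, values against control crossed 0 for VGAT (-0.00202 to 0.095), nwk (-0.020 to 0.10) and Eaat2 (-0.027 to 0.094) with wild-type EYA, and for Gad1 (-0.00747 to 0.15), Grd (-0.63 to 0.18) and t (-0.22 to 0.090) with D493N. For D493N minus wild type they did so for Gad1 (-0.071 to 0.079), Gat (-0.88 to 0.11), Grd (-0.20 to 0.60), VGlut (-0.29 to 0.14), Gs2 (-0.20 to 0.036) and alrm (-0.49 to 0.23). For E728Q minus wild type they did so for Gat (-0.40 to 0.058), Grd (-0.20 to 0.38), VGlut (-0.32 to 0.10) and alrm (-0.31 to 0.00862). For E728Q minus D493N they did so for Gad1 (-0.064 to 0.087), Gat (-0.28 to 0.71), Rdl (-0.23 to 0.092), Grd (-0.51 to 0.30), Gs2 (-0.057 to 0.18) and alrm (-0.38 to 0.34).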
